A study of Mus musculus with 7 samples.

Results

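In mouse primary rib chondrocytes, the promoters, gene bodies and surroundings of protein-coding genes were compared for peaks of 2 histone marks, H3K4me2 and H3K27ac. The comparison used 2 of the 7 samples of the series, the chondrocyte H3K4me2 library and chondrocyte H3K27ac replicate 1, whose peak lists both use the mm9 genome. All 22350 protein-coding genes of the GENCODE vM1 annotation on chromosomes 1 to 19 and X were placed in 4 classes by the peaks that came to 1 kb or less from the 5′ end of the gene model, the transcription start site (TSS). The study asked which enhancers drive Sox9 in cartilage cells, and both marks were profiled to find active enhancers and promoters. The cells came from rib cartilage of newborn mice and were used within a few passages, so that each library is a population grown in culture, and no genotype is named for these 2 libraries. Other H3K27ac libraries of the series served as measures that the classes did not use. They were chondrocyte replicate 2, chondrocytes labelled WT, chondrocytes that lack both copies of the Sox9 enhancers E160 and E308 (the deletion library), and primary dermal fibroblasts from skin. In such populations, fewer cells with a mark and less mark per cell cannot be told apart.

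H3K4me2 is a methyl mark placed on histone H3 by the MLL and SETD1 enzymes around promoters and enhancers, including those that are open but not active. H3K27ac is an acetyl mark placed by p300 and CBP at promoters and enhancers in use, and it cannot coexist on the same residue with the methyl mark of the Polycomb enzyme EZH2. At an active promoter the nucleosomes next to the TSS carry H3K4me3, and H3K4me2 is typically strongest on either side. Developmental regulators that are silent in a given cell type often have CpG-rich promoters that keep H3K4 methylation without acetylation.

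Promoters of 6 genes illustrate the classes, as the 250 bases just upstream of the annotated TSS, outside the gene model, in mm9 and read 5′ to 3′ on the gene's strand, with each CpG in capitals. Smad5, which transmits BMP signals, and Acan, which encodes the cartilage proteoglycan aggrecan, had both marks and CpG-rich promoters, whereas Lect1, which encodes chondromodulin, had both marks without a single CpG in this stretch. Neurog2, a neuronal regulator, had H3K4me2 alone, Vegfa, an angiogenic growth factor, had H3K27ac alone, and Krt14, a keratin of basal epidermis, had neither mark.
Smad5 (chr13:56804121-56804370, plus strand, 22 CpG): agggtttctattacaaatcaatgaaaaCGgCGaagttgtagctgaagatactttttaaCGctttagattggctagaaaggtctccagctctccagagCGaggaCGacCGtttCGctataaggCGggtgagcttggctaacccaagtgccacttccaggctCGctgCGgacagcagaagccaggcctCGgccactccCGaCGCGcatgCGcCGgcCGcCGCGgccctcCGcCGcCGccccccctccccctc
Acan (chr7:86198119-86198368, plus strand, 22 CpG): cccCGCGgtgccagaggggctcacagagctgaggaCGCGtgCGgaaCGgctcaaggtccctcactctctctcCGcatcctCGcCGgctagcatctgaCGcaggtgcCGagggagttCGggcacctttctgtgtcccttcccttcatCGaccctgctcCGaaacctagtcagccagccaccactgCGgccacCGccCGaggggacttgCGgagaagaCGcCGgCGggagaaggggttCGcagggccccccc
Lect1 (chr14:80061978-80062227, minus strand, 0 CpG): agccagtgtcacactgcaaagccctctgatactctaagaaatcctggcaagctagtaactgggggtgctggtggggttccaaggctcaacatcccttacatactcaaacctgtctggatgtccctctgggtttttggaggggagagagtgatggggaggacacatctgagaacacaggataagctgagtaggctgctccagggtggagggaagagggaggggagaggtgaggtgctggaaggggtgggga
Neurog2 (chr3:127335804-127336053, plus strand, 8 CpG): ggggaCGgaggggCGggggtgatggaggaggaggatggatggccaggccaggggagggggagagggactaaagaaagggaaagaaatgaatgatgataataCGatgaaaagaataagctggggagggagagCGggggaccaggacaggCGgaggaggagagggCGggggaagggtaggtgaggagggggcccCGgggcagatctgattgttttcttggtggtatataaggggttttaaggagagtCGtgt
Vegfa (chr17:46169327-46169576, minus strand, 11 CpG): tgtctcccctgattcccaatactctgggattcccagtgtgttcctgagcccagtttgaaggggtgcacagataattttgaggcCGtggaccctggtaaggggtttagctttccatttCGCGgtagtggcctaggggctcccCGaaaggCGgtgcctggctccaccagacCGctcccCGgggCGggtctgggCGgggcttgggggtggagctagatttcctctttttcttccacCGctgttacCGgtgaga
Krt14 (chr11:100068863-100069112, minus strand, 8 CpG): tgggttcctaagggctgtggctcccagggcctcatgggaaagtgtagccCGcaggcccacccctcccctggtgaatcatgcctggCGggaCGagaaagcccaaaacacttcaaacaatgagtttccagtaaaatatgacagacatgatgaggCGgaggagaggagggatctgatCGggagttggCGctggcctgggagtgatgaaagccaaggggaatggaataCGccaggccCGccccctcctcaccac

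The same genes show how the marks lay around the TSS. At Smad5 H3K4me2 formed 2 peaks, from -1159 to -32 bp and from +851 to +3554 bp of the TSS, and the single H3K27ac peak, from -622 to +1685 bp, bridged the gap between them. At Actb, which encodes β-actin, 1 H3K4me2 peak ended at -134 bp and the next began at +895 bp, and H3K27ac covered -97 to +539 bp. At Acan the H3K4me2 peak ran from -294 to +5162 bp and the H3K27ac peak from -294 to +4148 bp, so that both extended into the gene. At Lect1 the peaks ended at +4370 and +4364 bp. At Neurog2 an H3K4me2 peak of 3970 bp covered the TSS and no H3K27ac peak lay within 50 kb. At Vegfa H3K27ac covered -37 to +3835 bp, and the nearest H3K4me2 peak began at +1641 bp, outside the 1 kb window.

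**Figure D1:**
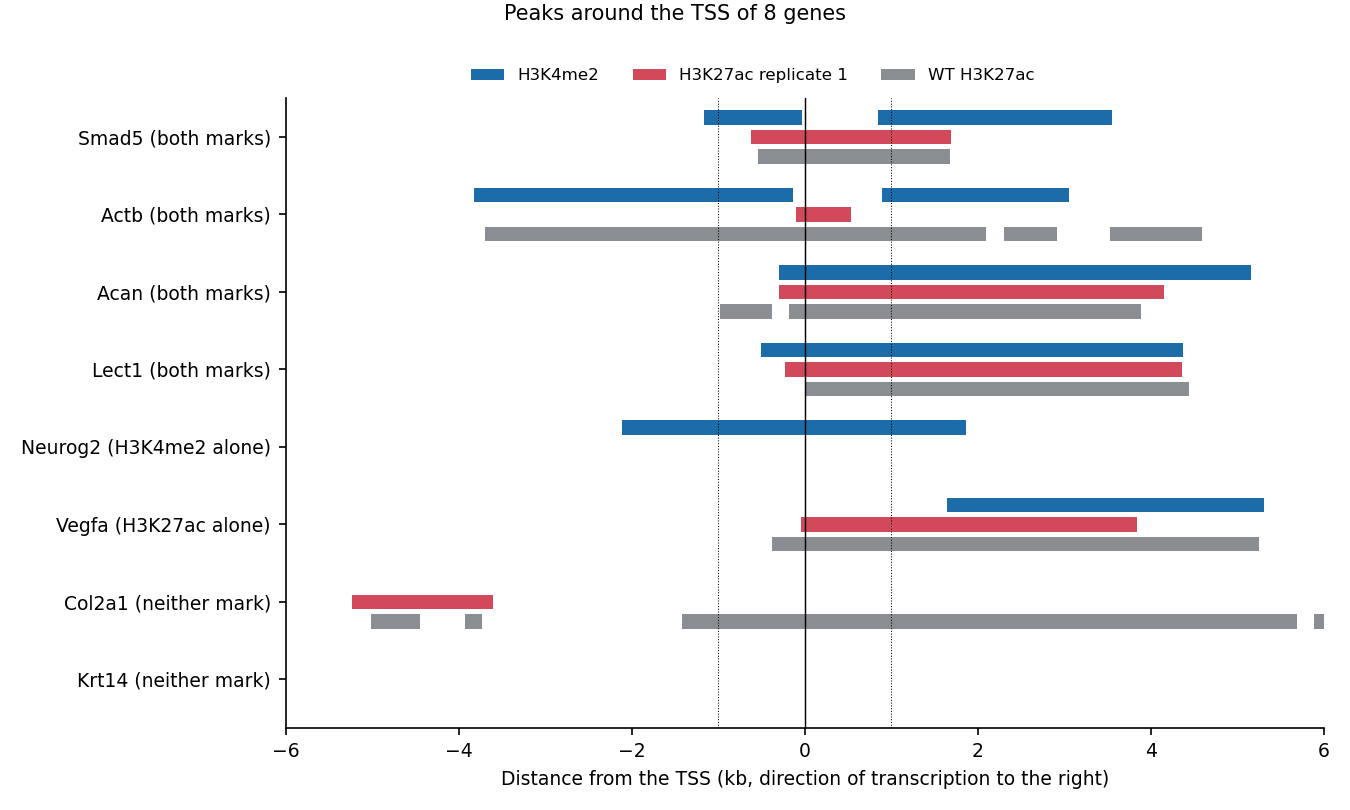
Peaks of H3K4me2, H3K27ac replicate 1 and WT H3K27ac within 6 kb of the TSS of 8 genes, with distance from the TSS in kb on the x axis and the direction of transcription to the right. Bars are deposited peaks and dotted lines mark the window of 1 kb on each side. At Smad5 and Actb the TSS lies between 2 H3K4me2 peaks, at Acan and Lect1 both marks run into the gene, and at Col2a1 a peak of 7110 bp in the WT list has no counterpart in the lists of either mark.

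The 2 lists differed in size and in how they treated broad domains, which touches each result. The H3K4me2 list held 66355 peaks that covered 92.2 Mb, with a median width of 1140 bp, and the H3K27ac list 25580 peaks that covered 30.9 Mb, with a median of 917 bp. Both lists stopped near the same width, at 8382 and 8512 bp, whereas the widest WT peak spanned 29892 bp. In the WT list the median score rank improved with width, from the top 26.5% of the list at 1 to 2 kb to the top 3.54% at 8 kb or more. In the H3K4me2 list it improved to the top 19.3% at 2 to 3 kb and then fell back to the top 44.5% at 5 to 8 kb, and in the H3K27ac list it stood at the top 14.9% at 2 to 3 kb, improved further at 3 to 5 kb and then fell back to the top 28.0% at 5 to 8 kb. Among 64 promoters under a WT peak of 8 kb or more, 21 had neither mark in the 2 lists (32.8%, exact 95% interval 21.6 to 45.7%) and 15 had both. Among the 2777 under a WT peak of 2 to 5 kb, 17 had neither mark and 93.1% had both. The absence of a peak at a gene with a broad WT domain is therefore given below with the WT width, and the cause was not tested.

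Promoters were mostly marked by both marks, by H3K4me2 alone or by neither. Both marks were present at 9128 promoters, which is 40.8% of all genes (40.2 to 41.5%), H3K4me2 alone at 4878 (21.8%, 21.3 to 22.4%), H3K27ac alone at 173 (0.774%, 0.663 to 0.898%) and neither at 8171 (36.6%, 35.9 to 37.2%). H3K4me2 was thus found at 98.1% of the 9301 H3K27ac promoters, and H3K27ac at 65.2% of the 14006 H3K4me2 promoters. With H3K27ac replicate 2 in place of replicate 1, on the 18089 genes that could be placed in its build, these shares were 95.4% and 62.0%, and H3K27ac alone was found at 362 of those promoters against 153 with replicate 1. Replicate 2 was read at RefSeq gene starts on GRCm38, and H3K4me2 at GENCODE vM1 starts on mm9. A gene whose starts differ between the annotations can therefore count as H3K27ac alone. These values and the SD below thus hold a change of annotation as well as of library, and the 2 were not separated. The mean of both replicates on those genes was 96.7% ± 1.93 (SD, n = 2) for H3K27ac promoters with H3K4me2 and 63.7% ± 2.49 (SD, n = 2) for H3K4me2 promoters with H3K27ac. H3K4me2 had 1 library, so no test between the marks was possible, and intervals cover counting error only. The rarity of H3K27ac alone depended on the length of the H3K4me2 list. When that list was limited to its 25580 highest-scoring peaks, as many as H3K27ac had, 1423 promoters had H3K27ac alone and 84.7% of H3K27ac promoters had H3K4me2. Few genes lay at the edge of the window: the nearest H3K4me2 peak was 901 to 1000 bp away at 78 genes and 1001 to 1100 bp away at 47, and for H3K27ac the numbers were 28 and 31.

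Other H3K27ac libraries, which the classes did not use, gave the classes the same order in each. A WT peak was present at 97.4% of promoters with both marks, at 28.8% of those with H3K4me2 alone, at 86.7% of those with H3K27ac alone and at 1.15% of those with neither. In dermal fibroblasts the shares were 93.0%, 26.5%, 76.3% and 0.881%, and in the deletion library 95.2%, 20.7%, 86.1% and 0.820%. Replicate 2 had a peak at 14.3% of the 4134 promoters with H3K4me2 alone that could be placed in its build, and 63.3% of those 4134 had no peak in any of these 4 libraries. The 150 promoters with H3K27ac alone that had a WT peak had wide ones, with a median of 3736 bp, against 1545 bp at promoters with both marks and 669 bp at those with H3K4me2 alone. At the 94 promoters with neither mark but a WT peak, the upper quartile of the WT width was 6909 bp.

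Housekeeping and energy genes were nearly all in the class with both marks, against the 40.8% over all genes. All 13 listed housekeeping genes had both, as had 41 of 43 genes of NADH dehydrogenase subunits (the first complex of the respiratory chain), 38 of 42 of proteasome subunits and 71 of 80 of ribosomal proteins. Of the 20 genes of enzymes that write or remove marks on H3K4 and H3K27, 17 had both marks, among them Ep300 and Crebbp (p300 and CBP), Ezh2, Eed and Suz12 (the Polycomb complex) and the H3K4 methyltransferases Mll1 to Mll3. The H3K4 demethylase gene Kdm5b and the H3K27 demethylase gene Kdm6b had H3K27ac alone. Setd1b, another H3K4 methyltransferase gene, had neither mark in the 2 lists and a WT peak of 10314 bp.

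Many cartilage genes carried wide peaks of both marks, as did genes of some other lists. Of 20 chondrocyte marker genes, 12 had both marks, 3 had H3K4me2 alone and 5 had neither, where over all genes 40.8% had both, 21.8% H3K4me2 alone and 36.6% neither. A WT peak was present at 14 of the 20 and a fibroblast peak at 1, against 47.1% and 44.7% of all promoters. The fibroblast list also stopped at a width of 8239 bp, and it had no promoter peak at Col1a1, Col1a2, Col3a1 and Postn, which fibroblasts are known to express, so that its missing peaks carry the same limit as those of the 2 marks. The median span of the promoter peaks of the chondrocyte markers was 4870 bp for H3K4me2 and 3895 bp for H3K27ac, where all promoters with both marks had 3071 and 1576 bp. Wide spans were not particular to this list. The genes of dermal fibroblasts and connective tissue had 3868 and 3420 bp, and those of the BMP and TGF-β pathway 3999 and 2640 bp. Col9a1, which encodes a chain of the cartilage collagen type IX, had an H3K4me2 peak of 5874 bp and an H3K27ac peak of 4600 bp. Acan had 5457 and 4443 bp, Matn3, which encodes a matrilin, 5463 and 5266 bp, and Comp, which encodes the cartilage oligomeric matrix protein, 5083 and 2595 bp. By score, the 12 H3K27ac peaks at these promoters ran from the top 0.219% of the list (Lect1) to the top 97.0% (Chad), with a median at the top 13.0%, and all promoters with both marks had a median at the top 24.0%. The 15 H3K4me2 peaks ran from the top 3.22% (Sox5) to the top 88.4% (Col11a2), with a median at the top 46.2%, against the top 15.4% for all promoters with both marks. Both lists were thus spread over most of the range, and these ranks were not tested. Col2a1, the gene of the main cartilage collagen, and Col11a1 had no peak of either mark at the promoter, and their WT peaks spanned 7110 and 10456 bp. Sox9, the master regulator of chondrocytes, had an H3K4me2 peak of 2713 bp and no H3K27ac peak in replicate 1, with peaks of 8247 bp in WT and 5588 bp in replicate 2. For Sox5, a partner of Sox9, the annotated TSS had H3K4me2 alone, and 34 H3K4me2 and 16 H3K27ac peaks lay in the gene body. Sox6, the other partner, had neither mark at the annotated TSS, with 42 and 17 peaks in the gene body. Its promoter had H3K27ac peaks of 3972 bp in WT and 1091 bp in replicate 2.

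Markers of other cells that rib preparations can hold were read from the same lists. Of 13 genes of dermal fibroblasts and connective tissue, 7 had both marks, 4 H3K4me2 alone and 1 H3K27ac alone, against 40.8%, 21.8% and 0.774% over all genes. The type I collagen genes Col1a1 and Col1a2 had H3K4me2 peaks of 4021 and 5627 bp and H3K27ac peaks of 1711 and 3153 bp, and Dcn and Lum, genes of small matrix proteoglycans, had H3K27ac peaks of 4986 and 3699 bp. By score the 8 H3K27ac peaks of this list ran from the top 0.485% (Lum) to the top 70.2% (Fn1, the fibronectin gene), with a median at the top 28.1%. Over all genes 41.6% of promoters had H3K27ac. It was in the promoter window of 1 of 9 macrophage and blood cell markers (Cd14), of 0 of 6 endothelial markers, 0 of 7 skeletal muscle markers, 0 of 6 keratinocyte markers and 0 of 6 osteoblast markers. H3K4me2 alone was present at 2 of the 9, 2 of the 6, 2 of the 7, 0 of the 6 and 3 of the 6 genes of these lists. The part of non-cartilage cells in the peaks was not tested.

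H3K4me2 alone was the commonest class among regulators of development and genes of excitable cells. Of 23 regulators of unrelated lineages, 13 had H3K4me2 alone and 10 had neither mark, against 21.8% and 36.6% over all genes, and 0 of the 23 had an H3K27ac peak in the promoter or the gene body or a WT peak at the promoter. Among them Neurog2, which specifies neurons, had a peak of 3970 bp, Sox2, a factor of stem and neural progenitor cells, had 3212 bp, and Foxa2, an endoderm factor, had 3153 bp. H3K4me2 alone was also found at 17 of 19 genes of Wnt ligands, 13 of 22 of FGF ligands, 14 of 19 of Sox factors, 22 of 45 of Fox factors and 21 of 40 Hox genes. It was found at 67 of 96 potassium channel genes and 23 of 27 glutamate receptor genes. Genes of receptors for odours and pheromones and of epithelial defence peptides had almost no peaks: neither mark was present at 1110 of 1113 olfactory receptor genes, 327 of 328 vomeronasal receptor genes and 41 of 41 β-defensin genes. Neither mark was also present at 72 of 94 cytochrome P450 genes and 36 of 46 keratin genes.

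**Figure D2:**
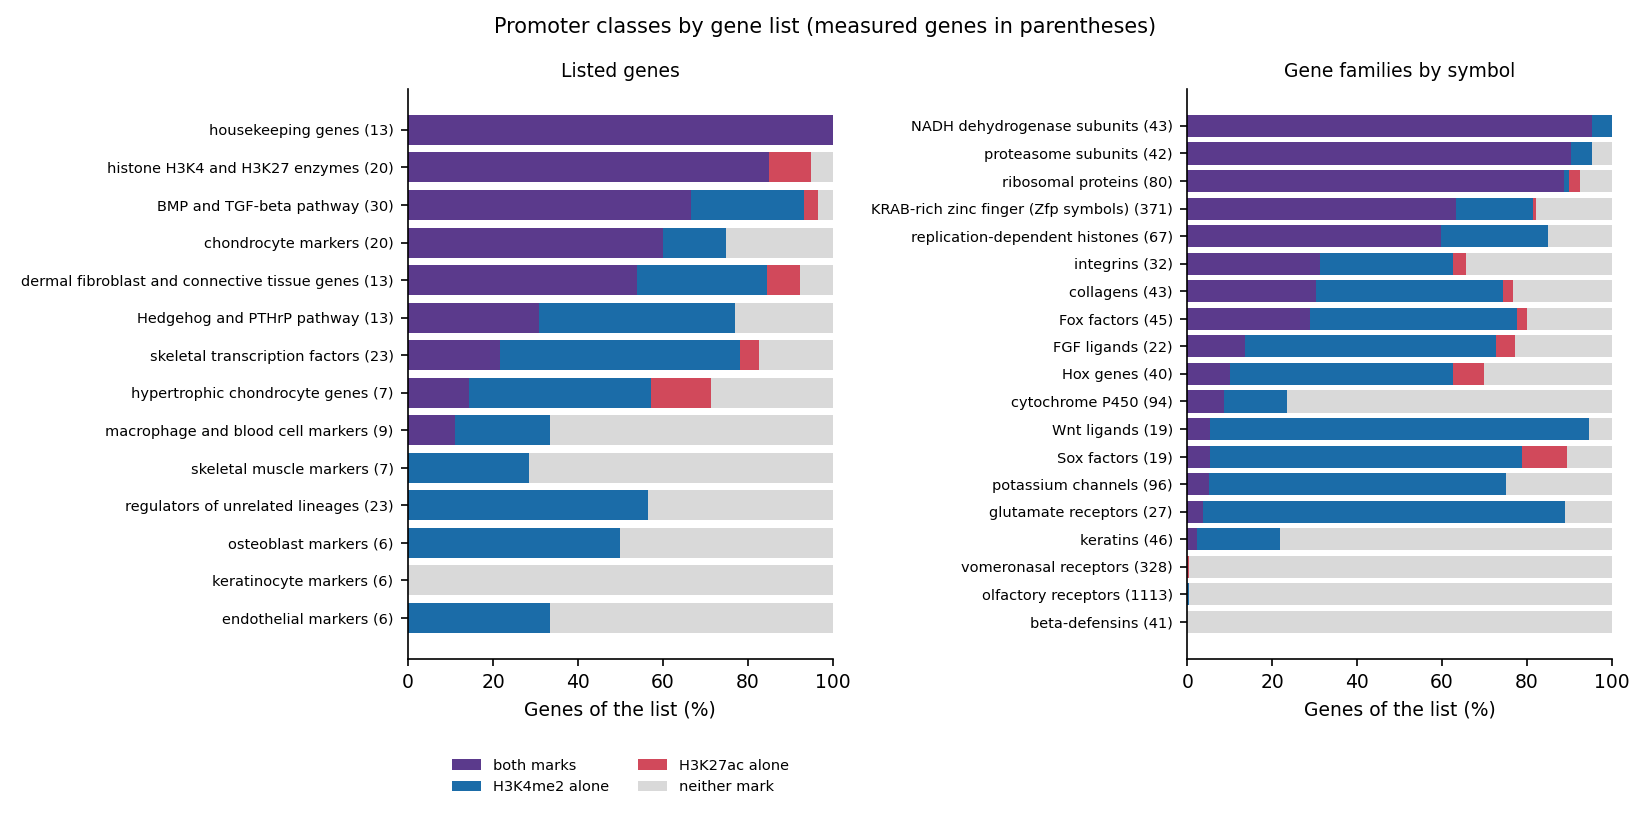
Share of the measured genes of each list (left) and of each family found by gene symbol (right) in the 4 promoter classes, in percent of the list. Housekeeping, respiratory chain and proteasome genes are almost wholly in the class with both marks, Wnt ligand, glutamate receptor and potassium channel genes mostly have H3K4me2 alone, and olfactory and vomeronasal receptor genes have neither.

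Genes of the skeleton and its signalling pathways fell into different classes, to be read against the 40.8% of all genes with both marks, 21.8% with H3K4me2 alone, 0.774% with H3K27ac alone and 36.6% with neither. Of 23 skeletal transcription factors, 13 had H3K4me2 alone, 5 had both marks (Runx1, Runx3, Twist1, Dlx5 and Meox2), 1 had H3K27ac alone (Foxc2) and 4 had neither, while 15 had a WT peak. Of those with H3K4me2 alone, Prrx1, a factor of limb mesenchyme, had an H3K4me2 peak of 6983 bp and a WT peak of 10814 bp, and Foxc1 had 2932 and 12388 bp. Msx1, Msx2 and Barx2 had H3K4me2 alone and no peak in WT. In the BMP and TGF-β pathway, 20 of 30 genes had both marks and 8 had H3K4me2 alone, while 25 had a WT peak. The genes Smad1 to Smad7 all had both marks, as had the receptor genes Bmpr1a, Bmpr1b, Bmpr2, Acvr1, Tgfbr1 and Tgfbr2 and the targets Id1, Id2 and Id3. Both marks were also present at the ligand genes Tgfb1, Tgfb2 and Tgfb3 and at Bambi, so the ligands were divided between classes. The ligands Bmp2, Bmp6, Bmp7, Gdf5 and Gdf10 and the secreted antagonists Nog, Chrd and Grem1 had H3K4me2 alone. Of these, Nog, Chrd and Bmp2 had WT peaks of 2311, 886 and 881 bp, and the others had no WT peak. Replicate 2 also had peaks at Nog (2080 bp) and Bmp2 (830 bp). Bmp5 had H3K27ac alone, with a peak of 6588 bp, and Bmp4 had neither, with a WT peak of 5378 bp. In the Hedgehog pathway, Smo, Sufu, Gli2 and Gli3 had both marks, whereas the ligand gene Ihh and the genes Ptch1, Gli1 and Hhip, which respond to the signal, had H3K4me2 alone, with widths of 1746 to 4660 bp. Of 7 genes of hypertrophic chondrocytes, 3 had H3K4me2 alone (Col10a1, Ihh and Mmp13), 1 had both (Spp1) and 1 had H3K27ac alone (Vegfa).

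Some genes with H3K4me2 alone had peaks among the highest-scoring or widest of the list. Slc7a8 and Sema5b, genes of an amino acid transporter and a semaphorin, and Kcnj2 and Ntrk2, genes of a potassium channel and of the receptor for the neurotrophin BDNF, ranked in the top 0.0226% to 0.0407% of the H3K4me2 list. None of these 4 had a WT peak. By width the class was led by Irf2bp2 (8382 bp), Tk1 (7657 bp), the growth factor gene Fgf9 (7335 bp), Fam89b (7178 bp) and Bcl11a (7094 bp). Fgf9 and Bcl11a had no WT peak, and Irf2bp2, Tk1 and Fam89b had WT peaks of 10587, 5173 and 2831 bp. The H3K4me2 peak of Irf2bp2 lay 998 bp from the TSS, at the edge of the window. A WT peak at a promoter with H3K4me2 alone went with acetylation nearby: an H3K27ac peak lay within 50 kb of 72.0% of the 1405 promoters with a WT peak (69.5 to 74.3%) and of 54.5% of the 3473 without (52.9 to 56.2%).

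The 173 promoters with H3K27ac alone had wide H3K27ac peaks. Their median width was 2821 bp against 1305 bp at promoters with both marks, and 61.3% were 2 kb or wider (53.6 to 68.6%) against 24.3% (23.4 to 25.2%). Many had H3K4me2 just outside the window, with a peak 1 to 2 kb from the TSS at 61 of the 173 and 1 to 5 kb away at 88. Replicate 2 had a peak at 130 of the 153 that could be placed in its build. The highest scores in this class were at Hspa9, a mitochondrial chaperone gene (4192 bp, top 0.184%), at Ccnd2, which encodes cyclin D2 (2906 bp, top 0.246%), at the apoptosis inhibitor gene Birc2 (2980 bp) and at Laptm4a (3808 bp). The widest peaks were at Anxa2, an annexin gene (8181 bp), at the AP-1 gene Fosl2 (7620 bp), at Bcl6 (6707 bp), at Ugp2 (6650 bp) and at Cyr61, which encodes a matricellular protein (6596 bp). At these 5 the nearest H3K4me2 peak was between 1303 bp (Fosl2) and 27058 bp (Ugp2) away.

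H3K4me2 peaks extended beyond H3K27ac peaks on both sides at most promoters with both marks. The H3K4me2 peak that covered most of the window had a median width of 2057 bp (quartiles 1424 and 2884 bp) and the H3K27ac peak 1305 bp (842 and 1968 bp). Taking all promoter peaks of a gene together, the H3K4me2 span was the wider at 94.2% of the 9128 promoters (93.8 to 94.7%). H3K4me2 reached further upstream at 84.8%, further downstream at 94.5% and further on both sides at 79.9%, and H3K27ac reached further on both sides at 58 promoters. The extra reach of H3K4me2 had a median of 445 bp upstream and 953 bp downstream, so that the midpoint of its span lay at +455 bp and that of H3K27ac at +233 bp. With replicate 2, read at RefSeq gene starts, the H3K27ac median was 984 bp, and the SD between replicates on the same genes was 233 bp. Across the 9128 genes the 2 spans rose together, with a Spearman correlation of 0.545, a description over genes that share 2 libraries. H3K4me2 exceeded H3K27ac in width by most at Nrp1, a semaphorin and VEGF co-receptor gene (7579 against 996 bp), at Efhd2 (6909 against 517 bp) and at Foxp2 (6731 against 781 bp). H3K27ac exceeded H3K4me2 by most at Zfp608 (7492 against 1996 bp), at the Krüppel-like factor gene Klf6 (5673 against 886 bp) and at the splicing regulator gene Mbnl2 (6293 against 1507 bp). At each of these genes 2 H3K4me2 peaks lay in the window, and the width given is that of the peak that covered most of it. The widest peaks of both marks together were at Zc3h4 (8197 and 8083 bp) and Myc (7921 and 7269 bp).

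**Figure D3:**
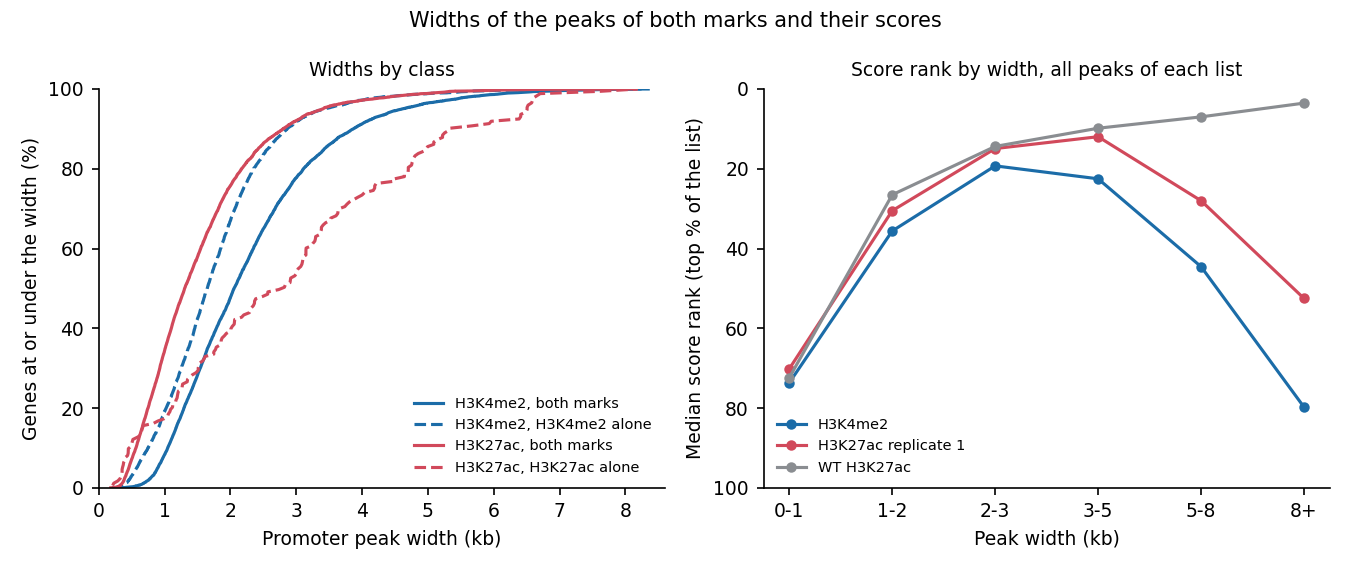
Left, cumulative share of genes, in percent, by promoter peak width in kb for each mark and class. Right, median score rank, in percent from the top of each list, by peak width in kb for all peaks of the H3K4me2, H3K27ac replicate 1 and WT H3K27ac lists. H3K27ac peaks in the class with H3K27ac alone are the widest, with a median of 2821 bp, and above 5 kb the scores fall back in the lists of both marks and not in the WT list.

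Around the TSS the marks had different shapes in the class with both marks. Coverage by H3K4me2 peaks rose to 81.0% of genes at -450 bp, fell to 64.2% at the TSS base (63.2 to 65.2%) and rose again to 92.0% at +800 bp. H3K27ac covered the TSS base at 71.1% (70.2 to 72.0%) and reached its maximum of 84.0% at +250 bp, and WT H3K27ac covered the TSS base at 84.9% and reached 92.5% at +200 bp. At 2238 promoters (24.5%) the TSS base was in H3K27ac and outside H3K4me2, and at 1612 (17.7%) the reverse. In promoters with H3K4me2 alone there was no such dip: H3K4me2 covered 83.6% at the TSS base (82.5 to 84.6%) and 85.8% at +150 bp. The dip came with a division of the mark. H3K4me2 formed 2 or more peaks in the window at 46.5% of promoters with both marks (45.5 to 47.5%), against 10.8% of those with H3K4me2 alone (9.97 to 11.7%), and H3K27ac formed 2 or more at 20.6%. At the 4207 promoters with exactly 2 H3K4me2 peaks, the gap between them had a median of 215 bp (quartiles 90 and 409 bp) with its midpoint at +45 bp. The TSS base lay in that gap at 48.8% and the midpoint of the gap in an H3K27ac peak at 72.0%. Over all promoters with both marks, H3K27ac covered 71.1% at the TSS base and 78.3% at +50 bp. The share at gap midpoints was thus near that of the whole class. The gaps between 2 H3K27ac peaks, at 1834 promoters, were shorter, with a median of 106 bp, and centred at -53.8 bp. The division depended on the calling of peaks. When peaks less than 1 kb apart were merged, H3K4me2 covered the TSS base at 86.1% and H3K27ac at 77.0%, which turns their order. When both lists were limited to their higher-scoring 50%, H3K4me2 covered the TSS base at 53.8% and formed 2 or more peaks at 26.3%, and 15.9% with equal numbers of peaks.

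**Figure D4:**
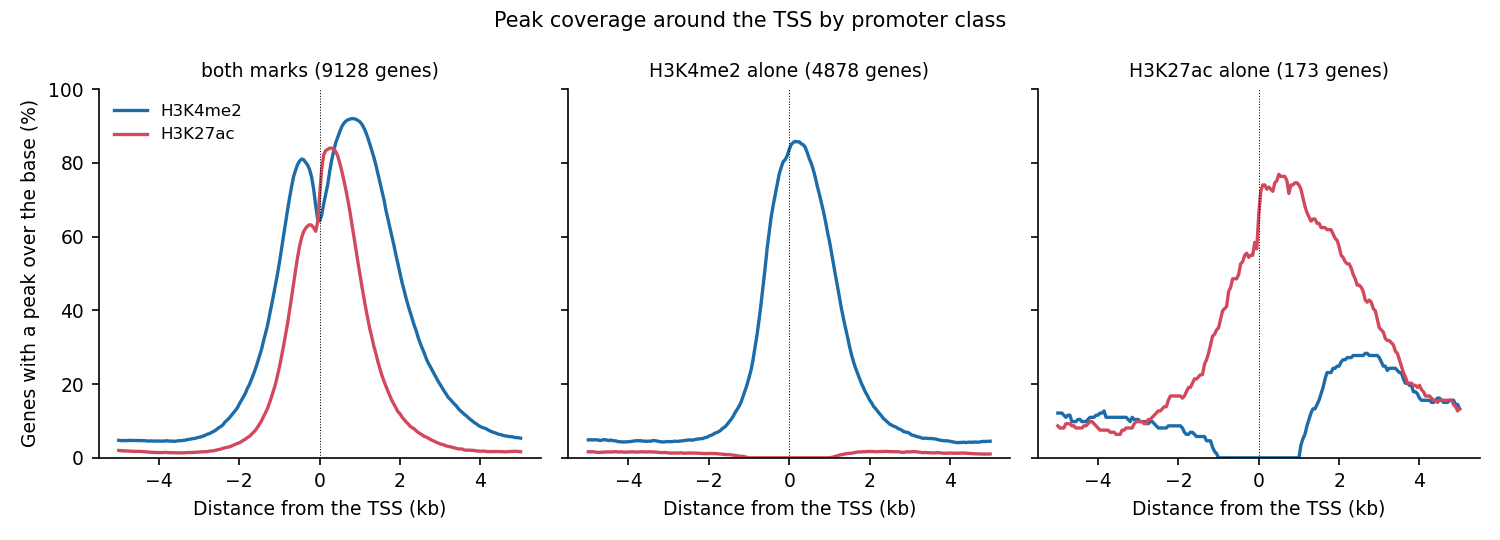
Share of genes, in percent, with a peak of H3K4me2 or H3K27ac over each base from 5 kb upstream to 5 kb downstream of the TSS, by promoter class, with distance in kb on the x axis and transcription to the right. With both marks, H3K4me2 has maxima of 81.0% upstream and 92.0% downstream and falls to 64.2% at the TSS, while H3K27ac peaks at +250 bp. With H3K4me2 alone coverage has a single maximum, and coverage by the missing mark is 0 within 1 kb by definition.

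H3K4me2 peaks left the TSS base uncovered more often, and were divided more often, at promoters with stronger acetylation in an independent library. The 8888 promoters with both marks and a WT peak were divided by WT score into 4 sets of 2222. From the lowest to the highest set, H3K4me2 covered the TSS base at 80.6%, 69.2%, 57.8% and 48.5% of promoters, and formed 2 or more peaks at 31.0%, 46.4%, 55.1% and 57.0%. H3K27ac replicate 1 covered the TSS base at 53.2%, 68.4%, 79.9% and 87.5%. The order was the same in CpG island-like promoters (defined below), from 76.0% (73.6 to 78.2%) to 45.4% (43.2 to 47.6%), and the change was smaller in other promoters, from 87.9% (764 of 869) to 78.6% (162 of 206). It was also present at genes with no other protein-coding TSS within 5 kb, from 82.8% to 45.6%. The median span of the H3K4me2 promoter peaks rose from 2554 bp in the lowest set to 3730 bp in the highest. Merging of peaks, which closed most gaps over the whole class, was not applied to these sets.

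**Figure D5:**
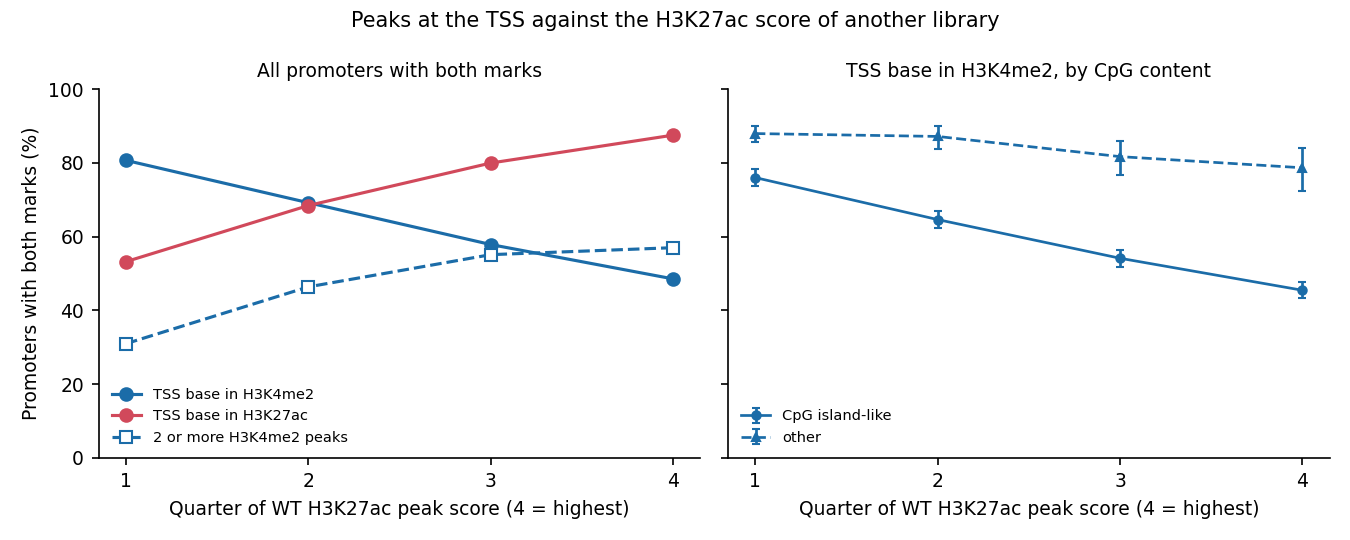
Promoters with both marks and a WT peak in 4 sets by WT H3K27ac peak score, from lowest (1) to highest (4), with the share of promoters in percent on the y axis. Left, TSS base covered by H3K4me2 or by H3K27ac and 2 or more H3K4me2 peaks; right, TSS base covered by H3K4me2 in CpG island-like and other promoters, with exact binomial 95% intervals. Coverage by H3K4me2 falls from 80.6% to 48.5% while that by H3K27ac rises from 53.2% to 87.5%. The median spans of both marks also rise over these sets.

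The classes differed in base composition and gene length, which the rule did not use. Promoters were called CpG island-like when, over 500 bp on each side of the TSS, the ratio of observed to expected CpG exceeded 0.6 and GC exceeded 50%. This held for 44.2% of all promoters, for 78.1% of those with both marks, 50.7% with H3K4me2 alone, 56.1% with H3K27ac alone and 2.18% with neither. In turn, of 9879 island-like promoters 72.2% had both marks, 2472 had H3K4me2 alone and 1.80% had neither. The median ratio was 0.759 with both marks, 0.612 with H3K4me2 alone, 0.690 with H3K27ac alone and 0.183 with neither, and the examples ranged from 0.973 at Smad5 to 0.131 at Lect1. Within the class with both marks, H3K4me2 covered the TSS base at 58.6% of island-like promoters (57.4 to 59.7%) and at 84.4% of the others (82.8 to 86.0%). The TATA box motif TATAAA, searched on the gene's strand from 40 to 20 bases upstream of the TSS, was found in 2.28% of all promoters, in 0.635% with both marks, 1.52% with H3K4me2 alone, 2.89% with H3K27ac alone (5 of 173) and 4.55% with neither. Median gene length was 22.5, 25.1, 18.5 and 5.70 kb in the same order. Another protein-coding TSS lay within 1 kb at 23.4% of promoters with both marks and at 6.58% with H3K4me2 alone, and 12.5% of H3K4me2 promoter peaks reached 2 or more promoters, so that such genes share their peaks.

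The longer H3K4me2 list had more peaks than the H3K27ac list at promoters (16683 against 9780) and also away from them. Of H3K4me2 peaks 25.1% reached a promoter window, 37.9% lay in a gene body and 37.0% outside genes, and of H3K27ac peaks 38.2%, 34.3% and 27.5%. Both marks were narrower there: the median H3K4me2 width was 1778 bp at promoters, 1072 bp in gene bodies and 911 bp outside genes, and the H3K27ac width 1151, 846 and 725 bp. Of H3K27ac peaks in gene bodies 85.8% overlapped an H3K4me2 peak, whereas of H3K4me2 peaks there 28.2% overlapped an H3K27ac peak. By gene, 3967 had both marks in the gene body, 4044 H3K4me2 alone and 291 H3K27ac alone, where a gene body peak overlaps the gene and does not reach the promoter window. Within 50 kb of the TSS, 15459 genes had both marks, 3565 H3K4me2 alone, 65 H3K27ac alone and 3261 neither. These counts depended on the length of the H3K4me2 list. With equal numbers of peaks, 4332 genes had H3K4me2 in the gene body and 4258 had H3K27ac, and 17587 and 15524 had them within 50 kb.

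The promoter classes also differed in their gene bodies and surroundings. An H3K4me2 peak in the gene body was present in 42.2% of genes with both marks at the promoter, 50.5% of those with H3K4me2 alone, 60.7% with H3K27ac alone and 19.5% with neither, and an H3K27ac peak there in 27.2%, 21.9%, 45.1% and 7.65%. These shares were not adjusted for gene length, whose medians were 22.5, 25.1, 18.5 and 5.70 kb in the same order of classes. The 60.7% partly follows from the definitions. A gene body peak must not reach the promoter window, where genes with H3K27ac alone have no H3K4me2. H3K4me2 that begins just past 1 kb, as at Vegfa, therefore counts as a gene body peak. Of the 173 genes, 88 had H3K4me2 at 1 to 5 kb from the TSS. H3K27ac within 50 kb was present at 59.6% of genes with H3K4me2 alone and 40.6% of those with neither. Genes with neither mark at the annotated TSS and both in the gene body numbered 596, among them Sox6, Epyc, which encodes a cartilage proteoglycan, Mef2c, a factor of hypertrophy, and the parathyroid hormone receptor gene Pth1r. Sox6 had the 42 H3K4me2 and 17 H3K27ac peaks given above and a WT promoter peak of 3972 bp. Epyc, Mef2c and Pth1r had no WT peak at the promoter. Aff3, also without either mark or a WT peak at the TSS, had 28 H3K4me2 and 18 H3K27ac peaks in its body. The largest numbers were in long gene models. Fgfr2, an FGF receptor gene, had 143 and 60 peaks in a model of 3009069 bp, Arfip1 had 57 and 17 in 1391424 bp, Auts2 had 65 and 22 in 1106010 bp and Gpc6 had 46 and 9 in 1054233 bp. Peaks in such models can belong to other genes within them.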

How the data were processed

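Reads were cleaned with fastp, mapped with Bowtie2 2.4.4 and peaks called with MACS2 2.2.4, per the labels, on mm9. Peaks were called per library. The deposited lists of chondrocyte H3K4me2, chondrocyte H3K27ac replicate 1 and fibroblasts hold a position and a score that starts at 50, in the layout of earlier MACS releases, and the other lists are in narrowPeak format. The unit is the authors' score, which was used only to rank peaks within a list. The lists give no read numbers, so the depth is unknown, and the input library was not analysed here. Replicate 2 marked 43.1% of 18089 promoters placed by symbol on GRCm38 and 6.24% on mm9, so it was compared by gene and no coordinate was converted. Its promoters were placed at RefSeq gene starts, which can differ from the GENCODE vM1 starts used for the other lists. No column of per-sample values was left unused (0).

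Promoter windows ran 1 kb to each side of the 5′ end of 22350 GENCODE vM1 protein-coding genes, with 1 bp of overlap counted, and promoter sequences came from the matching mm9 genome. Shares have exact binomial (Clopper-Pearson) 95% intervals. Overlaps were tested on simulated data and checked with bedtools 2.31.1, and run with pandas 2.3.3 and scipy 1.17.1 under Python 3.11.15, with figures by matplotlib 3.10.9. The members, gene lists and families were chosen with earlier results of these data known, and symbols of ribosomal pseudogenes were left out after their values were seen. Named genes were those of the lists and those ranking highest by score, width, difference in width or gene body peaks in each class, without clone names. Alternatives changed the window, the TSS, the overlap, the score threshold, the number and merging of peaks, the genes and the H3K27ac library. A few genes of the lists are counted and not reported here by name.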

Additional observations from a re-analysis of the deposited data

Results flagged for a closer look

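Chromosome Y was left out of all comparisons and still held peaks. The list of H3K27ac replicate 1 had 16 and the H3K4me2 list 12, with median widths of 523 and 663 bp. Both counts were above 3, a fixed limit that served only to flag them and is not a test. Of the 16 H3K27ac peaks, 6 overlapped an H3K4me2 peak. The WT, deletion and replicate 2 lists had 3 each.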

How the results depend on the processing

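Of 129 values recomputed under alternatives, 83 moved by less than the spread between H3K27ac replicates, the 95% interval or, for counts, 1.5 times, and for the H3K4me2 width by less than 0.5 of its interquartile range. Some of the 83 could not move. Merging peaks cannot change the promoter classes or their shares. Equal numbers leaves the H3K27ac list as it was, and the use of WT leaves the H3K4me2 list as it was, so counts from those lists stay the same. H3K27ac alone remained rarer than both marks and than H3K4me2 alone in each of the 11 alternatives.

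H3K27ac alone was at 339 promoters with a window of 500 bp, 640 in the higher-scoring 50% of each list, 1423 with equal numbers of peaks and 362 without replicate 1. There replicate 2 took its place, read at the gene starts of another annotation than H3K4me2. The share of H3K27ac promoters with H3K4me2 was 91.3% in the higher-scoring 50%, 84.7% with equal numbers and 95.4% without replicate 1, and that of H3K4me2 promoters with H3K27ac 53.9%, 68.0% and 62.0%, 60.4% at genes with no other TSS within 5 kb and 73.5% with WT.

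The TSS base was in H3K4me2 at 65.7% (500 bp), 73.1% (start of any annotated transcript), 53.8% (higher-scoring 50%), 55.6% (equal numbers), 86.1% (merged peaks) and 66.7% (WT), and in H3K27ac at 73.2% (500 bp), 69.1% (2 kb), 78.9% (any transcript), 75.7% (higher-scoring 50%), 77.0% (merged), 70.0% (no other TSS) and 82.3% (WT). Merging alone put H3K4me2 above H3K27ac, by closing the gaps.

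H3K4me2 formed 2 or more peaks at 38.9% (500 bp), 49.5% (2 kb), 52.1% (any transcript), 26.3% (higher-scoring 50%), 15.9% (equal numbers), 44.7% (overlap of 200 bp), 0.811% (merged), 42.8% (no other TSS) and 43.8% (WT), and H3K27ac at 18.1% (500 bp), 22.3% (2 kb), 24.3% (any transcript), 6.81% (higher-scoring 50%), 0.0767% (merged) and 12.2% (WT).

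After merging, the median widths at promoters with both marks were 3118 bp for H3K4me2 and 1601 bp for H3K27ac, and without replicate 1 the latter was 984 bp. In the higher-scoring 50%, 5338 genes had H3K4me2 and 2363 H3K27ac in the gene body, and with equal numbers 4332 had H3K4me2 and 4258 H3K27ac. Restricting replicate 1 to the genes placed in both builds, a choice made after seeing the data, left all 11 values within those limits. The causes of these changes were not tested beyond fewer peaks in the shorter lists. No paired analysis was possible because H3K4me2 had 1 library and no comparison rested on shared replicate numbers. The unknown depth limits what the absence of a peak shows.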

Other observations

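Replication-dependent histone genes, which are transcribed in dividing cells, had both marks at 40 of 67 and H3K4me2 alone at 17, and 58 had a WT peak, where over all genes 40.8% had both marks and 21.8% H3K4me2 alone. Collagen genes had both marks at 13 of 43, H3K4me2 alone at 19 and neither at 10, while 34 had an H3K4me2 peak and 25 an H3K27ac peak in the gene body. Of 32 integrin genes, 10 had both marks and 10 H3K4me2 alone, and 22 had H3K4me2 in the gene body. Zinc finger genes with Zfp symbols had both marks at 235 of 371.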
